A study of Homo sapiens with 6 samples.

Results

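Heat shock proteins and their J-domain cochaperones were examined in the bladder carcinoma cell line T24 after a short hairpin RNA lowered MTHFD2, a mitochondrial enzyme of folate metabolism. The genes were chosen by name alone: symbols that start with DNAJA, DNAJB, DNAJC, HSPA, HSPB, HSP90AA or HSP90AB, together with HSPH1, HSPD1, HSPE1, HSF1 and HSF2. Of 137 rows with such names, 53 pseudogene names, 2 annotated pseudogenes (DNAJB3 and HSPA7), 5 antisense names and the endoplasmic reticulum genes DNAJB9, DNAJC3 and HSPA5 were left out. That left 74 of the 54261 genes in the table, and 54 of them had enough counts to be tested. By general knowledge of where each protein works, 37 of the 74 act mainly in the cytosol. The others belong to mitochondria, the endoplasmic reticulum, the nucleus, vesicles or no clear compartment, so the set is wider than the cytosolic heat shock system.

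The control cells carried the lentivirus HBLV-ZsGreen-PURO and the knockdown cells a vector of the kind HBLV-h-MTHFD2shRNA-ZsGreen-PURO, with hairpin shRNA2 by title, and there were 3 RNA sequencing libraries each. Both kinds of cell were grown in high-glucose DMEM with fetal bovine serum and selected with puromycin. The design text of the series calls this a knockout, but titles and protocol name a hairpin, and no second hairpin is analysed here. The labels do not say whether the replicates were separate cultures, so p-values measure only the spread between these libraries, which may be technical.

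Hsp70 proteins bind exposed stretches of unfolded protein and release them in cycles driven by ATP. J-domain proteins, named DNAJ, bring substrates to Hsp70 and start its ATPase, and nucleotide exchange factors such as the Hsp110 proteins and HSPBP1 reset it. Hsp90 takes over partly folded clients such as kinases, small heat shock proteins hold aggregating proteins, and HSPD1 with HSPE1 forms the folding chamber of mitochondria. HSF1 is the transcription factor that raises many of these genes under proteotoxic stress, through inverted repeats of GAA called heat shock elements.

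A strict form of this element was found in the promoters of several abundant members, and 4 of these are shown as examples. The motif searched was GAA NN TTC NN GAA or TTC NN GAA NN TTC, with N for any base and each the reverse complement of the other, so that both strands were covered, in the 250 bases before each start. RefSeq promoter sequences (GRCh38.p14) matched 64 of the 74 members. Of 49 tested members with a sequence, 6 held the motif: HSPA8, HSP90AA1, HSP90AB1, DNAJB6, HSPD1 and HSPA6. The sequences of DNAJB1, HSPH1, DNAJA1, HSPB1, HSPE1, HSPA1A and HSPA1B, also known to be inducible by HSF1, held no match. The strict motif thus does not mark all such genes. Among all 27305 genes of that table the share was 0.557%. The sequences run 5′ to 3′ on the strand of the gene and end just before the start, with the motif in capitals. They are HSPA8 (chr11:123062137-123062386, minus strand), HSP90AA1 (chr14:102087045-102087294, minus strand), HSP90AB1 (chr6:44247693-44247942, plus strand) and DNAJB6 (chr7:157336754-157337003, plus strand).
HSPA8: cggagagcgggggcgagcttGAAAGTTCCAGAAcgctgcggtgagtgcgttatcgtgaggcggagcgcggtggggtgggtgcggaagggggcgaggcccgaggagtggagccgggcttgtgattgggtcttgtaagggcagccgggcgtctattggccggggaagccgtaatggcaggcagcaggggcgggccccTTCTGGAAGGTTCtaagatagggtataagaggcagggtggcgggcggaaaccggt
HSP90AA1: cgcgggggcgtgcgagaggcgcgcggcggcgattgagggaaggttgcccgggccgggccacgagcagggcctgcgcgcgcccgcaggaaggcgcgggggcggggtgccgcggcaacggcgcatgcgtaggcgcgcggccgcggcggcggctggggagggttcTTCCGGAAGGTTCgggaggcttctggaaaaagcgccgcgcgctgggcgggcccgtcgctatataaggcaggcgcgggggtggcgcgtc
HSP90AB1: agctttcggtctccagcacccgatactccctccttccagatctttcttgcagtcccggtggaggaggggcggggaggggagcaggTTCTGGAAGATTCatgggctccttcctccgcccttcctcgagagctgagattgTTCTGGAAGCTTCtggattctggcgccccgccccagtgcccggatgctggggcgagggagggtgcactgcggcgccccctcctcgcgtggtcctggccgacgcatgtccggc
DNAJB6: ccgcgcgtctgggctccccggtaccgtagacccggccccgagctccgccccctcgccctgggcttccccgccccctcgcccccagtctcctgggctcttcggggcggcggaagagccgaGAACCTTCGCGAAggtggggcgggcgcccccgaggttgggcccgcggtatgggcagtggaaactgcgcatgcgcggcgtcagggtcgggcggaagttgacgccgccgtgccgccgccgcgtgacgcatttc
The motif ends 217 and 42 bases before the start shown in HSPA8, 75 in HSP90AA1, 152 and 99 in HSP90AB1 and 118 in DNAJB6. For a gene with several RefSeq starts, the start with the most matches is shown. The other starts of HSP90AA1 and HSP90AB1 held no match. A match describes these letters and does not show that a factor binds there.

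MTHFD2 itself was at 185, 188 and 181 CPM, a count scaled to library size, in the control libraries and 26.7, 33.6 and 36.7 CPM in the knockdown libraries. Library totals ran from 17801990 to 19978392 counts, at which a count of 0 allows up to 3 counts, or 0.149 to 0.171 CPM. Such floors cover counting error only. Of the urothelial markers examined, KRT7, KRT8, KRT18 and PPARG were present, whereas GATA3, EPCAM and CDH1 held at most 11 counts in any library and UPK3A was at 0. The summed level of all 14 was 2110 to 2520 CPM in the controls and 1000 to 1320 CPM after knockdown. Of the 6 that were tested, KRT8 (log2 fold change -1.27) and KRT18 (-0.89) fell, UPK1A rose from 6 to 9 counts to 20 to 37 (1.72, edgeR adjusted p = 0.0141) and PPARG was at 0.04. Fibroblast markers moved with the knockdown: over the 11 listed genes the summed level was 7.35 to 9.36 CPM in the controls and 46.7, 12.3 and 40.7 CPM in knockdown replicates 1 to 3. In 7 of the 11 every knockdown library lay above every control, beside 20.1% of all tested genes. The 7 include PDGFRB and POSTN, which had too few counts to be tested. None of the 11 was at 0 in every library. Leukocyte markers summed to 4.14 to 4.56 CPM in the controls and 2.63 to 4.69 CPM after knockdown. Endothelial markers were lower in every knockdown library (1.12 to 1.76 CPM, against 2.12 to 3.07 CPM), and CDH5, the only one tested, fell (-1.18, edgeR adjusted p = 0.0333). The part of these markers in the results below was not tested.

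Of the 54 tested chaperone genes, 6 rose and 7 fell at an adjusted p under 0.05 (edgeR quasi-likelihood test), or 24.1%, where 17.3% of all 13896 tested genes were called. Over all tested genes 9.71% rose and 7.58% fell. The J-domain genes DNAJC12, DNAJB5, DNAJC18, DNAJB4 and DNAJC14 and the divergent Hsp70 relative HSPA12A rose. HSPA8, the constitutive cytosolic Hsp70, the J-domain genes DNAJC2, DNAJC9, DNAJC11 and DNAJC7, the exchange factor HSPBP1 and HSF1 fell. The median log2 fold change of the 54 genes was -0.13, beside 0.01 for all tested genes. All knockdown libraries lay above all controls for 9 of the 54 and below them for 18. The same held for 20.1% and 19% of all tested genes, or 39.1% in either direction.

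**Figure D1:**
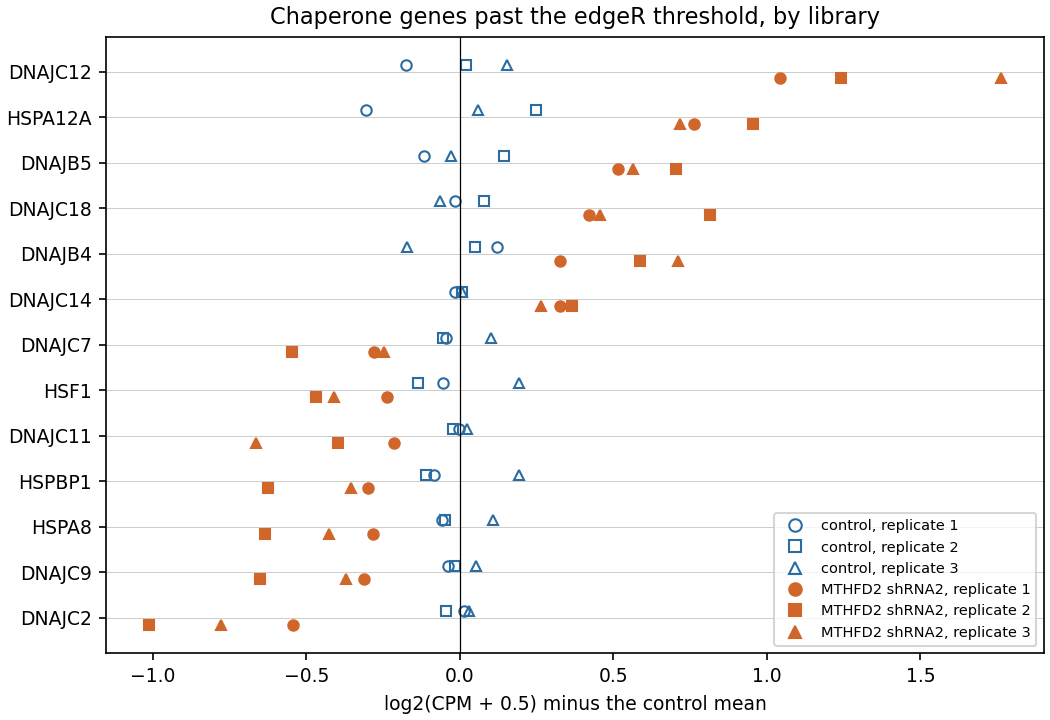
Values of the 13 chaperone genes that passed the edgeR threshold, 1 point per library, as log2(CPM + 0.5) minus the mean of the 3 control libraries (horizontal axis); open blue symbols are control and filled orange symbols knockdown libraries. DNAJC12 moved furthest up and DNAJC2 furthest down, and in none of the 13 did the 2 groups overlap.

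With knockdown replicate 2 alone against the controls, each of the 13 genes kept its direction. That library helped to make the calls and alone has no spread, so this fit is no separate check. This library was the lowest of the 3 for 6 of the 7 genes that fell and the highest for 4 of the 6 that rose. The same order was not counted over all tested genes. It also had the lowest fibroblast marker level of the knockdown group, and the part of that level here was not tested. The call counts depended on which libraries were used: of the 13, 3 held when control replicate 1 or 3 was left out, 8 when it was control replicate 2, 6 when it was knockdown replicate 2 and 11 when it was knockdown replicate 1 or 3. The share of all genes called moved too, from 17.3% to 7.03% and 6.92% without control replicates 1 and 3, 11.8% without control replicate 2, 10.4% without knockdown replicate 2, and 18.4% and 18.6% without knockdown replicates 1 and 3. DNAJC2 and DNAJC12 were the only members called in every fit that left out a library.

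Cytosolic Hsp70 centred on HSPA8 (chromosome 11, 123057489 to 123063230, minus strand), also called Hsc70. It was at 3650, 3680 and 4090 CPM in the control libraries and 3120, 2450 and 2830 CPM in the knockdown libraries. Every knockdown library lay below the lowest control. The fall was -0.44 ± 0.12 on the log2 scale (SE; adjusted p = 0.0314 by edgeR), a level 0.736 times that of the control. The call was lost without any 1 of the controls or without knockdown replicate 2 (edgeR adjusted p between 0.0688 and 0.11), with a log2 fold change between -0.48 and -0.36. Of the 50-base stretches in its longest transcript 15.4% also occur in transcripts of other genes, most of all in the pseudogene HSPA8P1, so reads from them cannot be placed by sequence alone.

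HSPA12A (chromosome 10, 116671192 to 116850236, minus strand), a distant relative with an Hsp70-like ATPase domain, was at 1.54, 2.50 and 2.12 CPM in the controls and 3.78, 4.39 and 3.64 CPM after knockdown. The log2 difference was 0.93 ± 0.24 (SE; edgeR adjusted p = 0.0204). These are small numbers, 27 to 48 counts against 68 to 87, and the gene no longer passed when control replicate 1 or 3 or knockdown replicate 2 was left out (adjusted p = 0.0937, 0.0647 and 0.0525 by edgeR). HSPA2, a member enriched in testis, was at 4.17 ± 1.20 CPM in the controls and 5.91 ± 1.22 CPM after knockdown (SD, n = 3 each), and its groups overlapped. The mitochondrial Hsp70 HSPA9, or mortalin, was at 854 ± 7.71 CPM against 707 ± 20 CPM (SD, n = 3 each). All 3 knockdown libraries were lower, but the gene missed the threshold (log2 fold change -0.27 ± 0.10, edgeR adjusted p = 0.0754). It passed by DESeq2 (adjusted p = 0.0193) and with GC content and length trends removed (-0.37, edgeR adjusted p = 0.00664).

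The heat-inducible Hsp70 genes HSPA1A and HSPA1B could not be assessed. Each held a single count over all 6 libraries, and their neighbour HSPA1L held none. The whole stretch of chromosome 6 around them was nearly empty in this table: of 49 other protein-coding genes within 300 kb of HSPA1A, 49 had a mean under 20 counts, beside 41.8% of all protein-coding genes. They include CLIC1, DDX39B and LSM2, each at 0 in every library, and BAG6, a cochaperone, at 1 count in all. HSPA1A and HSPA1B also share most of their sequence, with 72.6% of 50-base stretches of HSPA1A found in other genes. The cause of the gap was not tested. HSPA6, the strictly inducible Hsp70 outside that stretch, was low, at 0.520 to 1.38 CPM in the controls and 0.646 to 0.958 CPM after knockdown, and the groups overlapped. It held only 10 to 26 counts per library. Of its 50-base stretches 45.5% also occur in other genes, most of all in the pseudogene HSPA7.

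Of the exchange factors of Hsp70 that are members here, HSPBP1 fell and none of the 3 Hsp110 genes passed. HSPBP1 (chromosome 19, 55262231 to 55280381, minus strand) was at 64.2, 63.1 and 78.0 CPM in the controls and 55.2, 44.0 and 53.2 CPM after knockdown. Each knockdown library was below each control, with a log2 fold change of -0.43 ± 0.13 (SE; edgeR adjusted p = 0.0356). The change was -0.18 once trends of the libraries on GC content and length were removed (edgeR adjusted p = 0.0617), and it no longer passed with control replicate 1 or 3 or knockdown replicate 2 left out (adjusted p = 0.0751, 0.154 and 0.0977). Among the Hsp110 genes, HSPA4 was nearly level, at 423 ± 2.50 and 430 ± 2.94 CPM, and HSPA4L was at 56.9 ± 5.58 and 57.0 ± 3.36 CPM (SD, n = 3 each). HSPH1, the stress-inducible Hsp110, was lower in each knockdown library (447, 438 and 411 against 374, 348 and 373 CPM) without passing (log2 fold change -0.24 ± 0.10, edgeR adjusted p = 0.102). With GC content and length trends removed HSPH1 passed, at -0.40 (edgeR adjusted p = 0.00787), and HSPA4L was at -0.26 (adjusted p = 0.0348).

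The Hsp90 genes, among the most abundant members, gave no call. HSP90AB1, the constitutive form, was at 3420, 3440 and 3620 CPM in the controls and 3270, 2780 and 3010 CPM after knockdown. HSP90AA1, the inducible form, was at 2460, 2480 and 2390 CPM against 2180, 1960 and 2250 CPM. Both had all knockdown libraries below all controls, with log2 fold changes of -0.21 ± 0.11 and -0.20 ± 0.11, and neither passed (edgeR adjusted p = 0.214 and 0.223). Per kilobase of exon, HSP90AB1 was at 1170 ± 37.4 CPM in the controls, HSPA8 at 785 ± 51.3 CPM, HSP90AA1 at 466 ± 9.11 CPM and HSPD1 at 281 ± 5.46 CPM (SD, n = 3). DNAJA1 (244 ± 11.4) and HSPB1 (171 ± 25.5) came next on that scale, then HSPA9 (103 ± 0.934), and these steps in order were larger than the SDs. The order of the first pair rests on the length used: per kilobase of the longest transcript HSPA8 was at 1550 CPM in the controls and HSP90AB1 at 1310 CPM. After knockdown HSP90AB1 was at 1010 ± 82.0 CPM per kilobase and HSPA8 at 578 ± 69.7, whereas HSPA9 (85.7 ± 2.43) and HSPA4 (83.4 ± 0.57) differed by less than the SD of HSPA9.

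**Figure D2:**
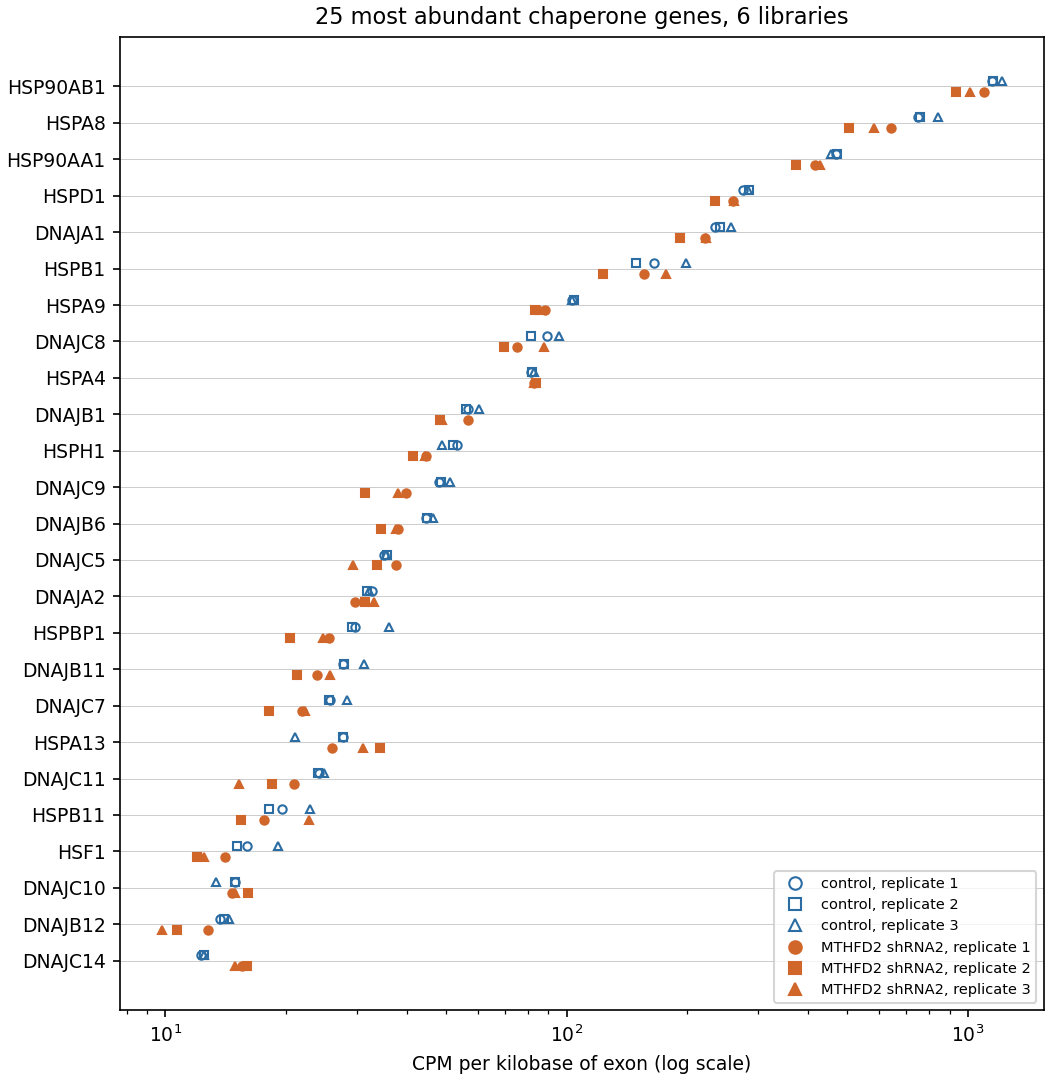
Level of the 25 most abundant chaperone genes in CPM per kilobase of exon (horizontal axis, log scale), 1 symbol per library; open blue symbols are control and filled orange symbols knockdown libraries. HSP90AB1, HSPA8 and HSP90AA1 stood at the top in both groups, and in all 3 the orange symbols lay left of the blue ones.

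Taken as a share of all counts, the 74 members made up 1.69%, 1.7% and 1.69% in the control libraries and 1.58%, 1.45% and 1.53% in the knockdown libraries. The groups did not overlap. HSPA8 alone went from between 0.359% and 0.386% of counts to between 0.259% and 0.316%, and the Hsp90 pair from between 0.567% and 0.586% to between 0.501% and 0.552%. HSP90AB1, HSPA8, HSP90AA1 and HSPD1 together held 59.6% to 63.2% of the members' counts in every library, so these shares mostly follow those genes. In bulk RNA, fewer cells with a transcript and less of it per cell cannot be told apart.

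The J-domain gene with the clearest fall was DNAJC2 (chromosome 7, 103312474 to 103344873, minus strand). Its product, MPP11 or zuotin, sits at the ribosome with the Hsp70 relative HSPA14 and acts on nascent chains. DNAJC2 was at 71.9, 69.1 and 72.8 CPM in the controls and 48.8, 35.1 and 41.4 CPM after knockdown. The knockdown libraries all lay well under the controls, with a log2 fold change of -0.77 ± 0.12 (SE; edgeR adjusted p = 0.00272). It stayed between -0.90 and -0.66 in the fits that left out a library, with adjusted p-values between 0.0023 and 0.013. HSPA14, its partner, was at 61.8 ± 0.548 CPM in the controls and 54.2 ± 4.82 CPM after knockdown (SD, n = 3 each) and did not pass (log2 fold change -0.19 ± 0.10, edgeR adjusted p = 0.223).

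Other J-domain genes that fell work in the nucleus, at mitochondria or beside Hsp90. DNAJC9 (chromosome 10, 73183362 to 73248862, minus strand), a chaperone of histones, was at 190, 192 and 202 CPM in the controls and 157, 124 and 150 CPM after knockdown (log2 fold change -0.44 ± 0.11, edgeR adjusted p = 0.0187). DNAJC11 (chromosome 1, 6634168 to 6701924, minus strand), which associates with the complex that shapes mitochondrial cristae, went from 123, 122 and 126 to 106, 93.7 and 77.7 CPM (-0.41 ± 0.12, adjusted p = 0.0334). DNAJC7 (chromosome 17, 41976433 to 42021376, minus strand), also called TPR2, which binds both Hsp70 and Hsp90, went from 241, 239 and 266 to 205, 170 and 209 CPM (-0.35 ± 0.11, adjusted p = 0.0444). In all 3 genes each knockdown library was lower than each control. Leaving out single libraries ended the call of DNAJC9 in 3 of 6 fits (without control replicate 1 or 3 or knockdown replicate 2), of DNAJC11 in 4 (without any control or knockdown replicate 3) and of DNAJC7 in 5 (all but without knockdown replicate 3). Their highest edgeR adjusted p-values were 0.0706, 0.1 and 0.159. In DNAJC9 33.7% and in DNAJC11 42% of 50-base stretches also occur, on either strand, in transcripts of other genes. Most are shared with FAM149B1 and THAP3, which overlap them on the opposite strand. Strandedness is not given, so whether such reads were told apart is not known.

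Upward, DNAJC12 (chromosome 10, 67796665 to 67838166, minus strand) changed most. Its product is a cochaperone of the hydroxylases of phenylalanine, tyrosine and tryptophan. It held 22, 29 and 32 counts in the controls and 72, 83 and 116 after knockdown, or 1.25, 1.51 and 1.70 CPM against 3.58, 4.18 and 6.21 CPM. The lowest knockdown library was above the highest control, with a log2 fold change of 1.64 ± 0.27 (SE; edgeR adjusted p = 0.00277), or 3.11-fold. With knockdown replicate 2 alone the log2 fold change was 1.48, and it lay between 1.37 and 1.80 in the fits that left out a library.

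DNAJB4 and DNAJB5 are close relatives of DNAJB1, the main stress-inducible J-domain partner of Hsp70. DNAJB5 (chromosome 9, 34989641 to 34998900, plus strand) was at 10.8, 13.0 and 11.5 CPM in the controls and 17.0, 19.4 and 17.6 CPM after knockdown (log2 fold change 0.61 ± 0.13, edgeR adjusted p = 0.00982). DNAJB4 (chromosome 1, 77979175 to 78017964, plus strand) went from 17.2, 16.4 and 14.0 to 19.9, 24 and 26.2 CPM (0.56 ± 0.14, adjusted p = 0.0187). Neither pair of groups overlapped. The call of DNAJB5 was lost without control replicate 1 (edgeR adjusted p = 0.0613) and that of DNAJB4 without control replicate 3 (adjusted p = 0.087). DNAJB1 itself was at 208, 206 and 222 CPM in the controls and 209, 178 and 180 CPM after knockdown, with overlapping groups (log2 fold change -0.16 ± 0.10, edgeR adjusted p = 0.275). Per kilobase the 2 that rose stayed far below it: 6.18 CPM for DNAJB4 and 3.05 CPM for DNAJB5 after knockdown, against 51.5 CPM for DNAJB1.

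The DNAJA genes, the J-domain partners with the layout of bacterial DnaJ, gave no call. DNAJA1 was at 640, 658 and 701 CPM in the controls and 604, 522 and 606 CPM after knockdown, lower in every knockdown library (log2 fold change -0.21 ± 0.11, edgeR adjusted p = 0.192). It passed with GC content and length trends removed (-0.24, adjusted p = 0.0486), and with knockdown replicate 2 alone the value was -0.36. DNAJA2 had a log2 fold change of -0.04 (adjusted p = 0.802). Among the abundant DNAJC genes that were not called, DNAJC8, a splicing-associated protein gene, was at -0.20 ± 0.11 (edgeR adjusted p = 0.243). DNAJC5, which chaperones proteins of secretory vesicles, was at -0.08 (adjusted p = 0.625). DNAJC6 (auxilin), which strips clathrin from vesicles with HSPA8, was higher in every knockdown library but missed the threshold (0.49 ± 0.17, adjusted p = 0.0684).

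A pair of J-domain genes of the endoplasmic reticulum membrane rose too. DNAJC18 (chromosome 5, 139408588 to 139444491, minus strand) was at 15.3, 16.3 and 14.8 CPM in the controls and 20.8, 27.6 and 21.4 CPM after knockdown (log2 fold change 0.59 ± 0.14, edgeR adjusted p = 0.0143). DNAJC14 (chromosome 12, 55820960 to 55830824, minus strand) went from 51.4, 52.3 and 52.3 to 65.2, 67.0 and 62.6 CPM (0.32 ± 0.10, adjusted p = 0.0403). Groups were apart in both genes. Leaving out control replicate 1 or 3 ended the call of DNAJC18 (adjusted p = 0.0617 and 0.0597 by edgeR). That of DNAJC14 was lost in 5 of the 6 fits that left out a library (all but without knockdown replicate 3; adjusted p up to 0.169) and without the low-count filter (adjusted p = 0.0805). DNAJC14 shares 54.4% of its 50-base stretches with other genes, among them an overlapping one on its strand. DNAJB12 and DNAJB11, other J-domain genes of this organelle, had log2 fold changes of -0.34 ± 0.11 and -0.29 ± 0.11 and did not pass (edgeR adjusted p = 0.0607 and 0.0781). DNAJB11 passed without knockdown replicate 3 (-0.36, edgeR adjusted p = 0.0386) and with GC content and length trends removed (-0.43, adjusted p = 0.0189). With knockdown replicate 2 alone its value was -0.45.

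**Figure D3:**
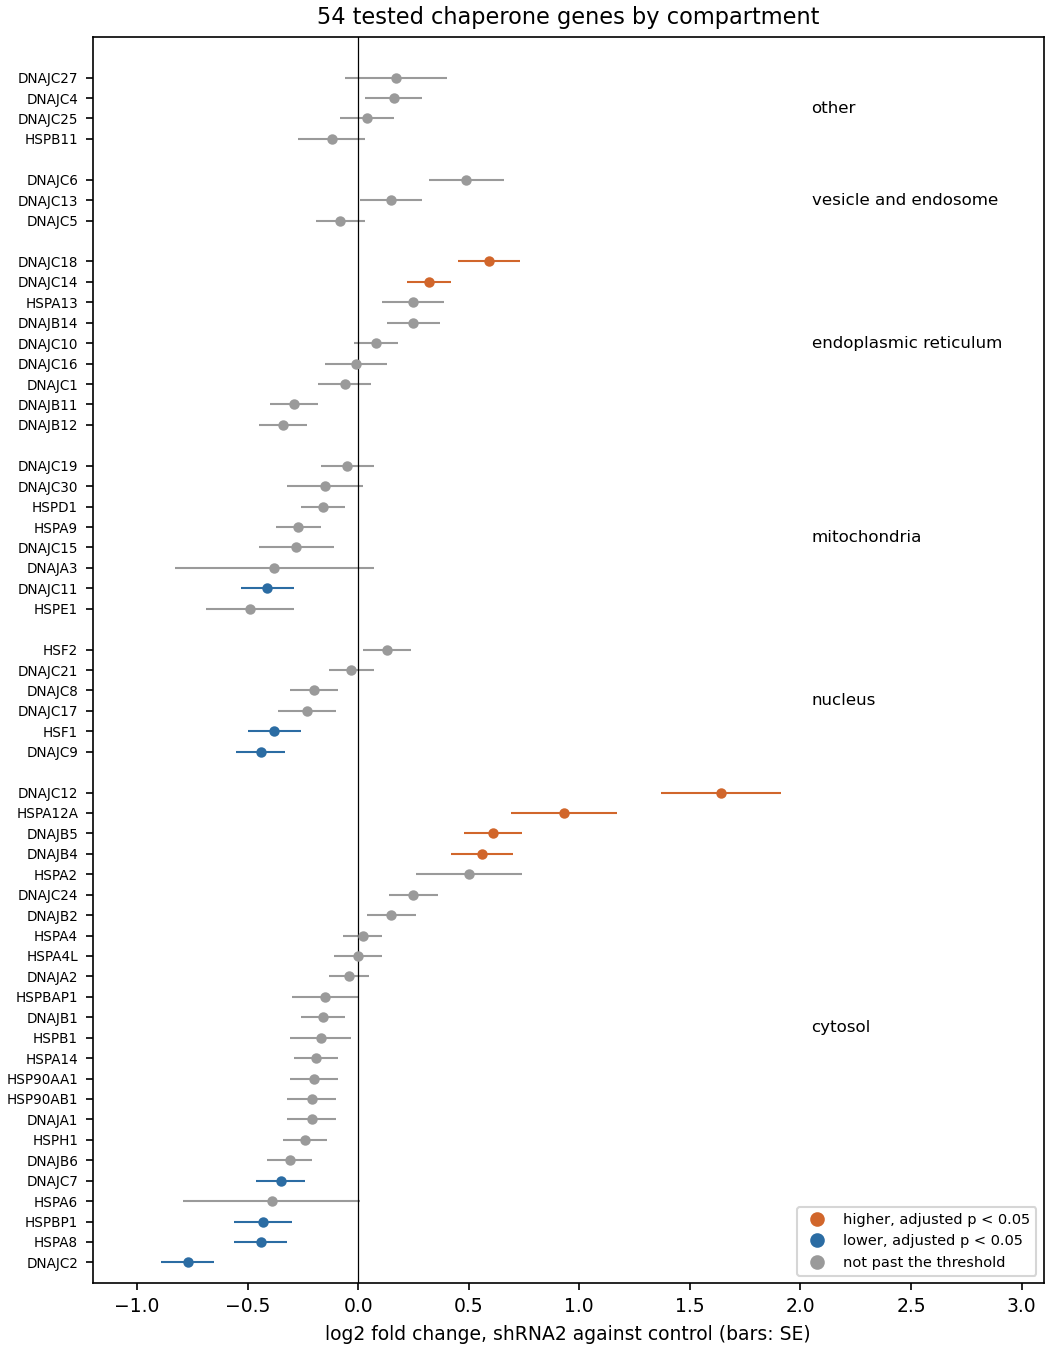
Log2 fold change of each of the 54 tested chaperone genes (horizontal axis; point, with bars for the SE) in blocks by the compartment where the protein mainly works; orange marks genes that rose, blue genes that fell and grey the rest. All 8 mitochondrial members lie left of 0, with only DNAJC11 past the threshold, while the endoplasmic reticulum block spans -0.34 to 0.59.

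By compartment, 4 of 24 tested cytosolic members rose and 4 fell, with a median log2 fold change of -0.17. Of 8 mitochondrial members, 1 fell and none rose, and the values ran from -0.49 to -0.05 with a median of -0.27. Of 9 members of the endoplasmic reticulum 2 rose and none fell (median 0.08), and of 6 nuclear members 2 fell and none rose (median -0.21). Over all tested genes 9.71% rose and 7.58% fell, with a median of 0.01, and no compartment was tested against another.

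The folding chamber of mitochondria gave no call. HSPD1 (Hsp60) was at 1170, 1210 and 1200 CPM in the controls and 1100, 996 and 1110 CPM after knockdown, lower in all 3 libraries (log2 fold change -0.16 ± 0.10, edgeR adjusted p = 0.299). Its cofactor HSPE1 (Hsp10) was listed at only 16.8, 15.9 and 19.5 CPM against 10.4, 9.43 and 17.3 CPM, with overlapping groups (-0.49 ± 0.20, adjusted p = 0.113). HSPE1 lies within an annotated readthrough gene with MOB4, and that readthrough gene was at 0 and MOB4 at 2 counts over all libraries. Of the 50-base stretches of HSPE1, 52.9% also occur in other genes, most of all in HSPD1, which overlaps it on the opposite strand. Whether these overlaps changed the reads counted for HSPE1 was not tested. Without knockdown replicate 3 the log2 fold change of HSPE1 was -0.82 (edgeR adjusted p = 0.00903). It passed at -0.50 without the low-count filter (adjusted p = 0.0133), and with knockdown replicate 2 alone the value was -0.89. DNAJA3, a mitochondrial J-domain gene, held only 7 to 32 counts per library. Its neighbours HMOX2, NMRAL1, CORO7 and PAM16 held 122, 84, 4 and 0 counts over all 6 libraries. Of 16 other protein-coding genes within 300 kb, 8 (50%) had a mean under 20 counts, beside 41.8% of all protein-coding genes. The largest count among those 16 genes was 1033, and 6 of them had no count over 3. The latter held for 5908 of all 18775 protein-coding genes. Whether a gap in the table lowered DNAJA3 was not tested.

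The small heat shock genes were mostly silent or below what could be tested. HSPB1 (Hsp27) was the exception, at 269, 243 and 325 CPM in the controls and 254, 201 and 289 CPM after knockdown, with overlapping groups (log2 fold change -0.17 ± 0.14, edgeR adjusted p = 0.426). Its sign turned, to 0.09, once GC content and length trends were removed (adjusted p = 0.383), and with knockdown replicate 2 alone it was at -0.48. HSPB11, which works in cilia despite its name, was at 63.0, 58.5 and 74.3 CPM against 57.0, 49.9 and 73.9 CPM. Of the 20 members without enough counts for a test, 10 were at 0 in all 6 libraries and the other 10 held at most 11 counts in any library. The latter include the small heat shock genes HSPB6 and HSPB8 and the J-domain genes DNAJA4 and DNAJC22.

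HSF1 (chromosome 8, 144291591 to 144314722, plus strand) was at 84.9, 80.2 and 101 CPM in the controls and 74.8, 63.6 and 66.3 CPM after knockdown. The groups did not overlap, but the highest control, replicate 3, stood apart from the other two. On the log2 scale the change came to -0.38 ± 0.12 (SE; adjusted p = 0.0447 by edgeR). This call was among the least stable: it was lost in 5 of the 6 fits that left out a library (all but without knockdown replicate 1; adjusted p up to 0.195), and the change was -0.19 with GC content and length trends removed (adjusted p = 0.0627). HSF2, a related factor, was at 22.7, 23.6 and 23.4 CPM against 23.3, 26.7 and 26.2 CPM and did not pass (0.13 ± 0.11, adjusted p = 0.453).

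The 6 tested genes whose promoters hold the searched heat shock element all had log2 fold changes below 0, and in 5 of them, all but HSPA6, every knockdown library lay below every control. The same separation downward was seen in 19% of all tested genes, at any level. It was also seen in 12 of the 20 tested members with a mean of 100 CPM or more, which include these 5. Of the 6 only HSPA8 passed the threshold, and DNAJB6, a J-domain gene that restrains aggregation, came close at 669, 672 and 694 CPM against 568, 515 and 564 CPM (log2 fold change -0.31 ± 0.10, edgeR adjusted p = 0.054). DNAJB6 passed by DESeq2 (adjusted p = 0.0126), and by edgeR without knockdown replicate 3 (adjusted p = 0.0411) and with trends removed (0.0344). In a wider list of genes known to be inducible by HSF1, 27 were tested, of which 13 are members: 1 rose (DNAJB4) and 3 fell (HSPA8, CHORDC1 and the collagen chaperone gene SERPINH1 at -0.90 ± 0.13, adjusted p = 0.00124). These 4 calls among 27 stand beside 17.3% called over all tested genes, and the median log2 fold change was -0.17.

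Within the knockdown group these inducible genes differed by library. In knockdown replicate 2, 4 of the 27 were above the mean of the knockdown libraries and the median deviation was -0.12 on the log2 scale. In knockdown replicates 1 and 3 there were 19 of 27 each above it, with medians of 0.04 and 0.05. The deviations of a gene sum to 0 within its group, so a low replicate 2 by itself raises the others. The median of all 54 tested members, some of them on this list, was lowest in knockdown replicate 2 too. Against the control mean it was -0.19 there, -0.11 in replicate 1 and -0.01 in replicate 3. No such count was made over all tested genes. Control replicate 3 was the highest of the controls, with 19 of 27 above the control mean and a median of 0.07. Over all tested genes, such deviations of control replicate 3 and knockdown replicate 2 correlated at -0.5, so opposite shifts of these libraries were not particular to this list. The largest single deviation was HSPE1 in knockdown replicate 3, at 0.52.

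**Figure D4:**
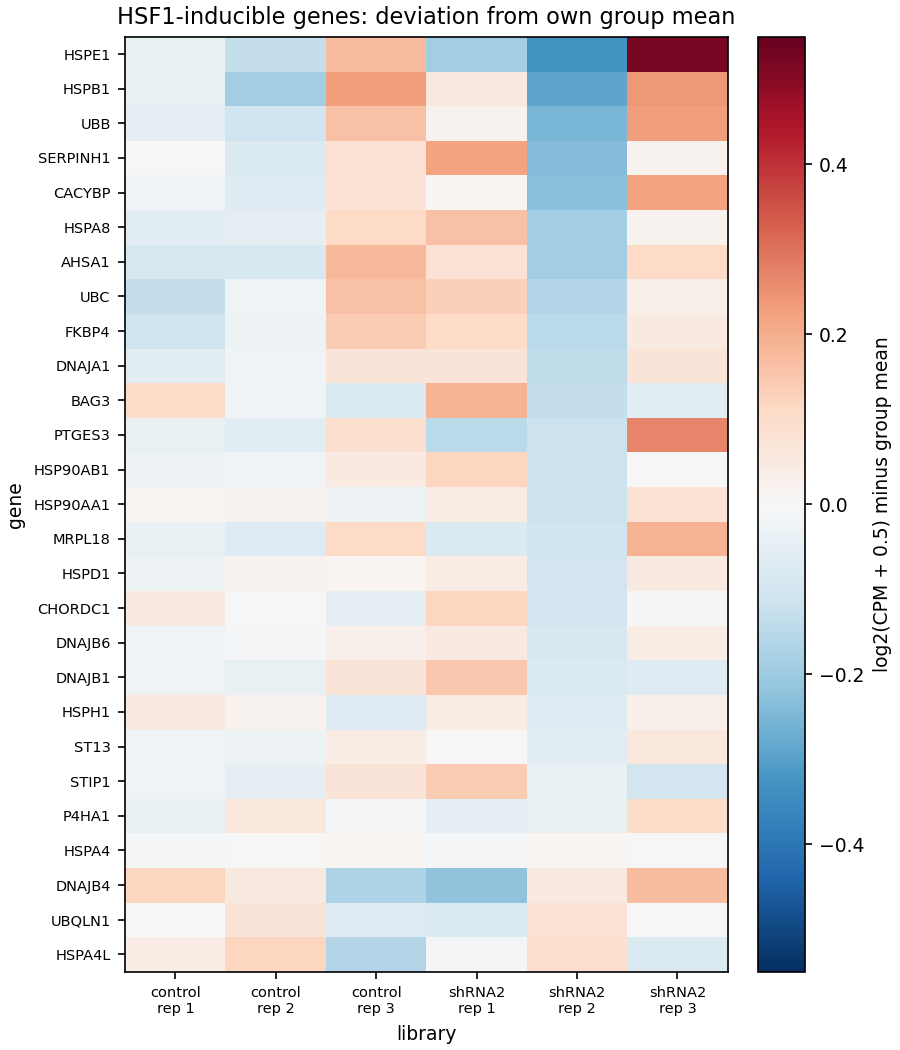
Deviation of 27 tested HSF1-inducible genes (rows) in each library (columns) from the mean of its own group, in log2(CPM + 0.5), red above and blue below. The column of knockdown replicate 2 is mostly blue, and HSPE1 in knockdown replicate 3 is the darkest cell at 0.52.

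The direction of the calls differed with level. Of 20 tested members with a mean of at least 100 CPM over the 6 libraries, 4 fell and none rose, with a median log2 fold change of -0.20. Among all 2350 tested genes at that level 12.2% fell and 3.7% rose, with a median of -0.10. Of the 34 members below that level 6 rose and 3 fell, with a median of 0. Below that level 10.9% of all 11546 genes rose and 6.64% fell, and their median was 0.04. Abundant genes leaned toward lower values over the whole table.

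**Figure D5:**
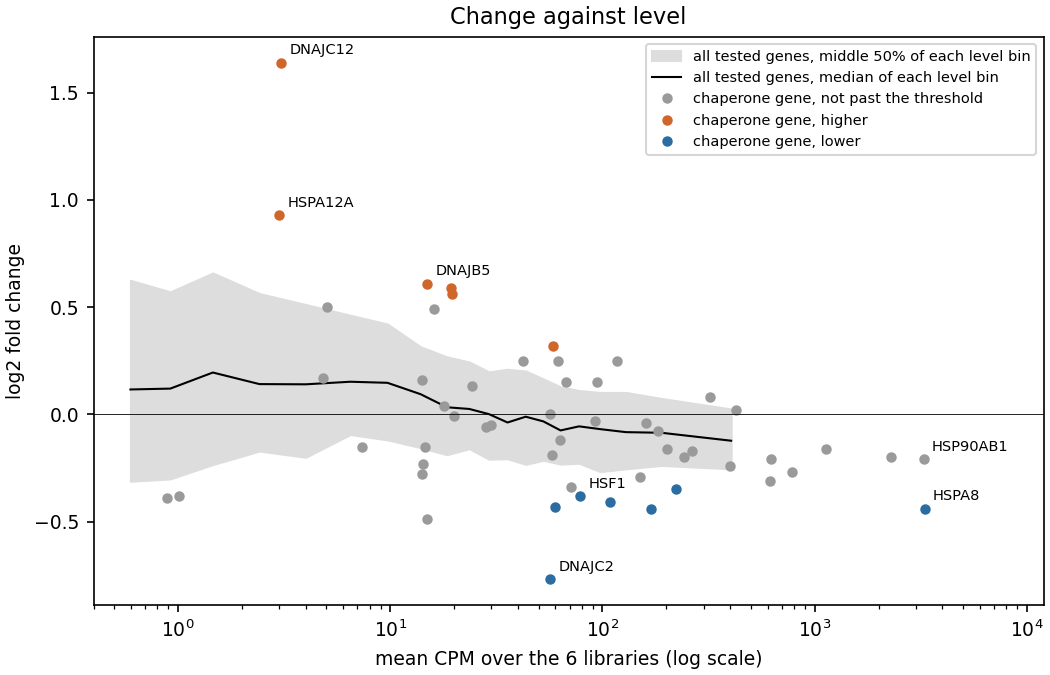
Log2 fold change of the tested chaperone genes (points; vertical axis) against mean CPM over the 6 libraries (horizontal axis, log scale), with the median (line) and middle 50% (grey band) of all tested genes in 20 bins of level. The line drops from above 0 at low levels to -0.12 in the highest bin; DNAJC12 and DNAJC2 are the highest and lowest points, many other members also lie outside the band, and HSPA8 lies beyond its right end.

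In the lists of partners outside the name rule every call was downward; over all tested genes 9.71% rose and 7.58% fell. Of 32 tested cochaperones of Hsp70 and Hsp90, 1 fell and none rose: CHORDC1, an Hsp90 partner (log2 fold change -0.41 ± 0.10, edgeR adjusted p = 0.0169). Among 19 tested genes of the cytosolic chaperonin and prefoldin systems, 2 fell: PDRG1, a prefoldin-like subunit (-0.68 ± 0.14, adjusted p = 0.00893), and PDCL3, a chaperonin cofactor (-0.45 ± 0.13, adjusted p = 0.0395). Of 11 tested regulators or relatives of HSF1 other than HSF1 and HSF2, none was called.

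Mitochondrial protein import and quality control genes outside the rule gave 4 falls among 14 tested and no rise, where 7.58% of all tested genes fell and 9.71% rose. GRPEL1, the exchange factor of HSPA9 (-0.50 ± 0.13, edgeR adjusted p = 0.0184), and TIMM44, which tethers HSPA9 to the import channel (-0.52 ± 0.12, adjusted p = 0.0161), were among them. The protease gene AFG3L2 (-0.33 ± 0.09, adjusted p = 0.0312) and ATF5, a transcription factor of the mitochondrial stress response (-1.2 ± 0.20, adjusted p = 0.00323), fell as well. Of 15 chaperones of the endoplasmic reticulum outside the rule, 3 fell and none rose, beside the same shares of all genes: DNAJB9, a J-domain partner of BiP (-0.71 ± 0.15, adjusted p = 0.00842), SDF2L1 (-0.70 ± 0.22, adjusted p = 0.0476) and the disulfide isomerase gene P4HB (-0.48 ± 0.11, adjusted p = 0.0164).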

How the data were processed

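RNA sequencing of 6 T24 libraries, 3 per group by title, was analysed. In 1 deposited table the authors give raw counts by gene symbol, as whole numbers without normalization. The aligner HISAT2 2.0.4 and the build GRCh38 are named in the submitters' processing notes. Nothing used here gives the counting tool, annotation, strandedness or filters. Every column was used.

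Low counts were removed with filterByExpr, TMM factors were computed, and the knockdown group was set against the control group by the quasi-likelihood test of edgeR 4.0.16 (glmQLFit with robust fitting, then glmQLFTest; limma 3.58.1, R 4.3.3). Benjamini-Hochberg correction covered 13896 genes, with calls at 0.05. Each SE was taken as the absolute log2 fold change over the root of the F statistic. CPM used TMM-scaled library sizes. GENCODE release 29 (GRCh38) gave exonic lengths and coordinates, by symbol, for 73 of 74 members (HSPA14 has no unique match). The procedure was tested on simulated data. Replicates differed by more than counting noise in each pair (chi-square over its degrees of freedom 2.56 to 31.6).

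Other settings tried were RLE scaling, DESeq2 1.42.0, a looser and a stricter filter, a replicate block, each library left out, knockdown replicate 2 alone and calls at 0.01. Removal of loess trends on transcript GC content and length, available for 90.3% of tested genes, was chosen after seeing the data. The members and lists were chosen with earlier results of these data known. Named members are those past the threshold, up to 3 of the most abundant per class, and HSF1, HSF2, HSPA1A, HSPA1B, DNAJB1 and HSPH1. From other lists up to 4 called genes were named. DNAJB12, DNAJA3, DNAJA4, DNAJC6, DNAJC22, HSPA1L, HSPA2, HSPA6, HSPA14, HSPB6, HSPB8 and neighbours of HSPA1A, DNAJA3 and HSPE1 were named after their values were seen.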

Additional observations from a re-analysis of the deposited data

How the results depend on the processing

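With RLE scaling, DESeq2, no low-count filter or a stricter one, the count of changed chaperone genes stayed within 1.5 times of 13 of 54. The replicate numbers are shared between the groups, but the labels do not call them pairs. Correlations were taken over all tested genes, on log2 CPM minus the mean of each gene in its own group. These deviations correlated between same-numbered libraries at -0.02, 0.38 and 0.42. Those of libraries numbered 2 and 3 correlated best with their own number, and those of control replicate 1 with knockdown replicate 2 (0.21). The lowest value was -0.5, between control replicate 3 and knockdown replicate 2. The reported fit does not pair them, and whether they are paired was not tested. With the replicate block 25 members passed (11 higher, 14 lower) and 5062 of all genes, and all 13 calls were kept. Of the other named members, the block brought DNAJA1, DNAJB6, DNAJB11, HSPA9, HSPA13, HSPE1 and HSPH1 past the threshold. Leaving out a library gave 3 to 14 changed members (2 to 6 higher, 1 to 8 lower) and 986 to 2645 changed genes. Of all genes, 1003 passed when control replicate 1 was left out, 986 for control replicate 3 and 1469 for knockdown replicate 2. Knockdown replicate 2 alone gave 24 changed members, 16 of them lower, and 4432 genes. At a threshold of 0.01, 3 members passed (2 higher, 1 lower) and 749 genes. With GC content and length trends removed, a choice made after seeing the data, 12 members were lower and 7 higher, 11 of the 13 calls were kept, and 3492 of all genes (25.1%) changed. The cause of these shifts was not tested, beyond the fewer samples in the fits that left out a library. The median of the members lay between -0.21 and -0.072 in every setting.

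No called member changed sign. Among the other named members HSPA4L, at 0 in the reported fit, took the other sign with RLE scaling (0), DESeq2 (-0.01), no filter (0), with control replicate 3 left out (-0.08), with knockdown replicate 2 left out (-0.04) and with trends removed (-0.26), and its fits that left out a library ran from -0.08 to 0.06. HSPB11 did so without knockdown replicate 2 (0, where such fits ran from -0.29 to 0) and with trends removed (0.08), DNAJC5 without knockdown replicate 3 (0, in a range of -0.17 to 0), and HSPA4 (-0.1) and HSPB1 (0.09) with trends removed. With exon length replaced by the longest transcript, 8 rather than 7 members reached 100 CPM per kilobase, and HSPA8 (1550) stood above HSP90AB1 (1310). Depth limits the 20 untested members, which held at most 11 counts in any library, and low tested members such as DNAJA3, HSPA6, HSPA12A and DNAJC12.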

Other observations

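Pseudogene rows left out by the name rule held 576 to 781 counts per library, or 0.204% to 0.26% of the counts of the 74 members. Of the 50-base stretches of HSP90AA1, HSP90AB1 and HSPA8 transcripts, 21.4%, 18.8% and 15.4% also occur in other genes.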
